A study of Mus musculus with 36 samples.

Results

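The genes described here are the muscle mRNAs, outside a set of 12 genes named apart, most of them of the clock, whose daily rhythm peaked around dusk. They were chosen by a fit to log2(FPKM + 1), where FPKM counts sequenced fragments scaled to transcript length and library size, over the 10837 genes that averaged 1 FPKM or more in 36 libraries. The fit held a mean per genotype and a shared cosine and sine of 24 h period. A member had an F test p under 0.001, an amplitude (how far the fitted cosine rises above its mean, in log2 units) of at least 0.25, and a peak from 9 h to before 15 h of zeitgeber time (ZT). Of the genes tested, 359 passed the p and amplitude limits at any hour, which is 3.31% of the genes tested. Of these, 108 peaked in the dusk window. Per1, Per2, Per3, Cry2, Nr1d2, Dbp, Tef, Hlf, Arrdc2 and Chac1 were then left out, as were Bhlhe40 (8.46 h) and Bhlhe41 (7.68 h), which peaked before the window. That gave 98 members. The other windows of the day held 46 genes (3 h to before 9 h), 77 genes (15 h to before 21 h) and 128 genes (21 h to before 3 h). The values that chose the members, namely shared p, amplitude and peak time, are given below as a description with no test.

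Gastrocnemius muscle, a mixed and mainly fast calf muscle, was taken from Bmal1hep-/- mice, in which the core clock gene Bmal1 (Arntl) was deleted in the liver, and from wild-type (WT) mice. Each genotype was sampled at ZT0, ZT4, ZT8, ZT12, ZT16 and ZT20 with 3 biological replicates, giving 12 groups and 18 libraries per genotype. The driver of the deletion, strain, age, sex, light schedule and feeding are not given in the labels used here. As muscle was not the deleted tissue, its Arntl level is no check of the deletion. By convention ZT0 is lights on and ZT12 lights off, so dusk is the hour at which mice, which are nocturnal, become active and start to feed. In the mammalian clock, BMAL1 and CLOCK bind E-box sequences and drive genes such as the Per genes and Dbp, whose mRNAs peak in the late day and evening. DBP and its relatives act in turn through D-box sequences. Muscle also receives daily glucocorticoid, insulin, sympathetic and contraction signals that turn on immediate early genes, metabolic enzymes and signalling brakes.

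The sources used here give no read totals. Steps between low FPKM values gave a relative depth, with the shallowest library at 57.4% of the deepest. The median was 73.3% in Bmal1hep-/- and 68.4% in WT. The summed level of 8 skeletal fibre markers was 70408 to 145349 FPKM in Bmal1hep-/- and 87700.3 to 128317 FPKM in WT, so the tissue label was met. Still, 6 libraries stood apart, as earlier results of these data had shown. The 8 adipocyte markers were high in Bmal1hep-/- ZT4 replicate 1 and in Bmal1hep-/- ZT20 replicate 3, at 2.47 and 2.00 log2 units over the average library. Long transcripts read low in Bmal1hep-/- ZT12 replicate 2 and in Bmal1hep-/- ZT8 replicate 2 (Spearman's rank correlation of deviation with length across genes -0.35 and -0.28). WT ZT20 replicate 3 and WT ZT16 replicate 3, which are not among the 6, came close at -0.23 and -0.21. Bmal1hep-/- ZT16 replicate 3 listed Acta1, the skeletal actin gene, at 0. The hepatocyte markers of WT ZT8 replicate 3 reached a sum of 253 FPKM, against at most 15.03 FPKM in any Bmal1hep-/- library and 19.5 FPKM in the other WT libraries. Without these 6 libraries the rule chose 96 genes, of which 76 were among the 98. The 22 not chosen again included Cebpb, Cebpd, Mcf2l, Gkn3, Dusp1, Tcap, Kcna5 and Ier3. In bulk muscle, fewer cells of a type and less RNA per cell cannot be told apart.

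The members followed a common course in both genotypes, lowest around lights on and highest around lights off. In Bmal1hep-/- muscle the highest group mean stood at ZT12 for 69 members, at ZT8 for 15 and at ZT16 for 14. In WT muscle it stood at ZT12 for 64, at ZT8 for 14 and at ZT16 for 17, with Acot2 and Ucp3 highest at ZT4 and Kcna5 at ZT20. The lowest mean stood at ZT0 for 65 members in Bmal1hep-/- and 65 in WT, and for all others at ZT4 or ZT20. The median fold of the highest over the lowest group mean was 1.96 in Bmal1hep-/- and 1.82 in WT. From ZT4 to ZT8 the group mean went up for 89 members in Bmal1hep-/- and 94 in WT, by medians of 0.29 and 0.32 on the log2 scale. From ZT12 to ZT16 it went down for 83 in Bmal1hep-/- and 80 in WT, by medians of -0.25 and -0.24. The ascent thus took the light phase and the descent the dark phase, as the choice of members requires.

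**Figure D1:**
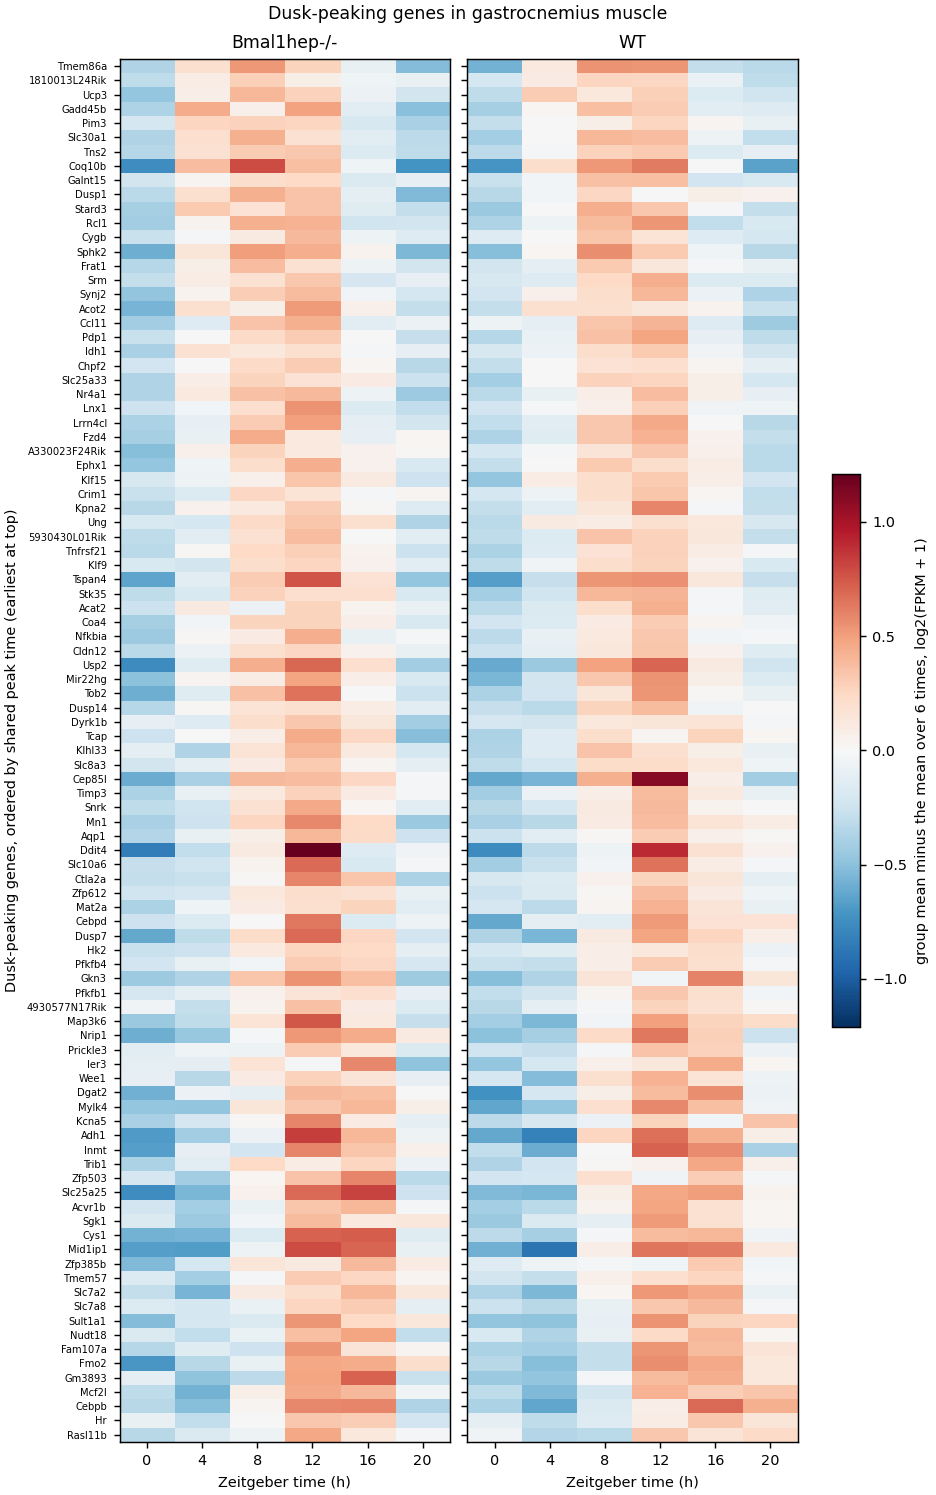
Colour gives the group mean of log2(FPKM + 1) minus the gene's mean over the 6 times within the genotype, for the members (rows, earliest shared peak at the top, all but 1) at each zeitgeber time (columns), in Bmal1hep-/- muscle on the left and WT muscle on the right (n = 3 libraries per group). Rows turn from blue at ZT0 to red at ZT8 to ZT16 in both panels, and the red block moves to later columns from top to bottom.

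Shared amplitudes ran from 0.25 to 0.80 with a median of 0.34. 18 members reached 0.5 and 33 were below 0.3. Peak times were spread over the window: 33 peaked from 9 h to before 11 h, 30 from 11 h to before 13 h and 35 from 13 h to before 15 h. The cosine took between 35.4% and 89.5% of the variance within genotypes, with a median of 59.5%. At the limits of the rule, Zfp385b (0.25), 4930577N17Rik (0.25) and Acat2 (0.25) had the smallest amplitudes inside, and Slc12a4 (0.25), Nrde2 (0.25) and Lin9 (0.24) the largest outside. By p, 4930577N17Rik (0.00092), Zfp503 (0.000902) and Dyrk1b (0.000774) lay just inside. Gadd45g (0.00117), Plin5 (0.00118) and Gatsl3 (0.0012) lay just outside. By peak time, Tmem86a (9.08 h), 1810013L24Rik (9.09 h) and Ucp3 (9.16 h) opened the window, and Jarid2 (8.98 h) and Slc25a34 (8.96 h) were among those that just missed it. Rasl11b (14.9 h), Hr (14.9 h) and Cebpb (14.8 h) closed it, ahead of Adamtsl4, Prodh and Slc43a3 (15.1, 15.1 and 15.1 h). By level, Fam107a (1.00 FPKM) and Slc10a6 (1.04 FPKM) were the lowest members, and Rab27a, at 0.988 FPKM, was the only gene that met every limit but the level.

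On this per-length scale the members covered a wide range of muscle mRNA levels, from 1.00 to 4315 FPKM on average, with a median of 10.2 FPKM, beside 7.60 FPKM over all genes tested. The most abundant was Tcap, which encodes the titin cap of the sarcomere Z-disc. It was followed by Mylk4, a muscle myosin light chain kinase (564 FPKM), the water channel gene Aqp1 (185 FPKM), Mat2a, whose product makes S-adenosylmethionine (109 FPKM), and the kinase gene Sgk1 (92.4 FPKM). At the other end stood Fam107a, Slc10a6, Zfp385b, Lnx1 (1.44 FPKM) and Zfp612 (1.72 FPKM). In the account by function that follows, each class was assembled after the values were seen, and a few members are named for their function.

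Promoters of the members were read from RefSeq (GRCm38.p6) windows of 250 bases before to 50 after each start, which were found for 79 of the 98 members. The E-box CACGTG, the site of the BMAL1 and CLOCK pair, was present in 13 (16.5%), beside 12.3% of the other genes tested. The D-box (TTATGTAA or TTACGTAA) was present in 2 (2.53%), beside 0.801%, and the cAMP response element TGACGTCA in 3 (3.797%), beside 3.75%. The glucocorticoid response element (AGAACA and TGTTCT with 3 bases between them) was present in 1 member, Sgk1, and in 0 of 8244 other genes tested. Both strands were searched, members had 1.42 windows per gene against 1.28 for the others, and a match is a description of letters, not a bound site. The nuclear receptor motif AGGTCA was in 15.2% of members and 14.9% of the other genes tested, and the heat shock motif GAANNTTC in 7.59% and 6.93%. With a further GAA after 2 more bases, that motif was in 1.27% and 0.643%.

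Upstream stretches are shown for 6 members that carry an E-box, a D-box, the cAMP element or the glucocorticoid element, with these matches in capitals, read 5′ to 3′ in the sense of the gene, and the last base lying next to the start. A D-box on the other strand reads TTACATAA. Coq10b (chr1:55052520-55052769, plus strand) holds a D-box and an E-box, within an annotated exon of the non-coding gene E330011M16Rik. Slc25a25 (chr2:32424067-32424316, minus strand) holds the cAMP element. Tspan4 (chr7:141476130-141476379, plus strand) holds an E-box. Gkn3 (chr6:87388936-87389185, minus strand) holds a D-box. Sgk1 (chr10:21993640-21993889, plus strand) holds an E-box and the glucocorticoid element, which overlaps a match of GAANNTTC. Klf15 (chr6:90462326-90462575, plus strand) holds E-boxes, with a further match across the start that is not shown.
Coq10b: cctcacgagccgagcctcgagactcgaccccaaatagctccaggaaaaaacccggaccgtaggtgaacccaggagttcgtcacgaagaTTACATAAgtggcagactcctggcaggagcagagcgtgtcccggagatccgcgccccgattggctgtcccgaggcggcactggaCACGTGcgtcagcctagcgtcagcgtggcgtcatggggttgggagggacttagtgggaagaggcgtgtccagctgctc
Slc25a25: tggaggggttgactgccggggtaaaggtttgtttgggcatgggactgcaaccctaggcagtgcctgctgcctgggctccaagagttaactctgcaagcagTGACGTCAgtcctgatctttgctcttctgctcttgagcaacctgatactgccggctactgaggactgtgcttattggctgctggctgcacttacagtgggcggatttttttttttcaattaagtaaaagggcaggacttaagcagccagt
Tspan4: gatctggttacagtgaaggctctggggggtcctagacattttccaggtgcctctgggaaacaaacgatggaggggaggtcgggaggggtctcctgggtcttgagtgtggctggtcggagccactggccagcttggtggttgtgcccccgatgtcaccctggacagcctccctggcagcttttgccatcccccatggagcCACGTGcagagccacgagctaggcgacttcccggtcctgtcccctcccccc
Gkn3: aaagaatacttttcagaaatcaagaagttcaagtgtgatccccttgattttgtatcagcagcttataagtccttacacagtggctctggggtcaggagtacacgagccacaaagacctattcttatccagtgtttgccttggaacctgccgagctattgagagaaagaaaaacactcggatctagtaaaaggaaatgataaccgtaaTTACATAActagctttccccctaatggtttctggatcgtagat
Sgk1: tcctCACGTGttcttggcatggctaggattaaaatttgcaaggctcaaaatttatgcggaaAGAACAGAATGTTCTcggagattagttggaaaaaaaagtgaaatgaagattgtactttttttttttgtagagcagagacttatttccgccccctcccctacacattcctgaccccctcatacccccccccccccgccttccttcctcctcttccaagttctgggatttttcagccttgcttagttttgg
Klf15: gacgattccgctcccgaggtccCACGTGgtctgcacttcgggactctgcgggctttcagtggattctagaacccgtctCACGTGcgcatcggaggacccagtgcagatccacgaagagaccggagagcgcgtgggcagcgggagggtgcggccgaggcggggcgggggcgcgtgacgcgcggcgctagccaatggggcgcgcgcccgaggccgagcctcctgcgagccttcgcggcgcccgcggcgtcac

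Of 4 members known as clock outputs in many tissues, 3 followed the cosine closely, with an R2 of 0.895 for Usp2 (the highest of any member), 0.887 for Tspan4 and 0.826 for Coq10b. The other, Wee1, was among the members of smallest p for a shape beyond the cosine, though not past the adjusted threshold. The rule favoured close fits, so these R2 values are a description. Coq10b, whose product binds coenzyme Q in mitochondria, was among the earliest. Bmal1hep-/- libraries read 5.53, 5.98 and 3.86 FPKM at ZT0, at 8.70, 12.5 and 16.4 at ZT4, at 20.0, 13.3 and 17.2 at ZT8, at 10.7, 13.6 and 12.2 at ZT12, at 7.80, 9.78 and 8.96 at ZT16 and at 6.14, 4.75 and 4.65 at ZT20. WT libraries read 5.24, 4.40 and 5.79 FPKM at ZT0, at 8.89, 9.75 and 13.7 at ZT4, at 11.6, 14.1 and 14.7 at ZT8, at 10.9, 15.4 and 18.1 at ZT12, at 8.95, 8.51 and 9.46 at ZT16 and at 5.05, 4.69 and 6.64 at ZT20. Every ZT8 and ZT12 library lay above every ZT0 and ZT20 library in both genotypes, and the genotypes overlapped at each time. Its shared amplitude was 0.75 ± 0.06 (SE) with a peak at 9.35 h.

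Usp2, a deubiquitinating enzyme gene, stood at 99.0, 111 and 109.5 FPKM at ZT12 and 40.3, 37.1 and 37.1 FPKM at ZT0 in Bmal1hep-/- libraries. In WT libraries it stood at 96.6, 111 and 108 FPKM at ZT12 and 39.3, 41.8 and 43.8 FPKM at ZT0. The times were far apart relative to the spread, and the genotypes overlapped. Tspan4, which encodes a tetraspanin of the cell membrane, stood at 15.01, 17.03 and 18.4 FPKM at ZT12 and 7.04, 5.15 and 5.24 FPKM at ZT0 in Bmal1hep-/-, and at 15.3, 13.1 and 13.8 FPKM and 5.01, 6.21 and 5.16 FPKM at the same times in WT. Amplitudes were 0.68 ± 0.04 for Usp2 and 0.64 ± 0.04 for Tspan4 (SE). Wee1, a cell cycle kinase gene, had a lower level (1.91 FPKM on average), an amplitude of 0.32 and a peak at 13.3 h.

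**Figure D2:**
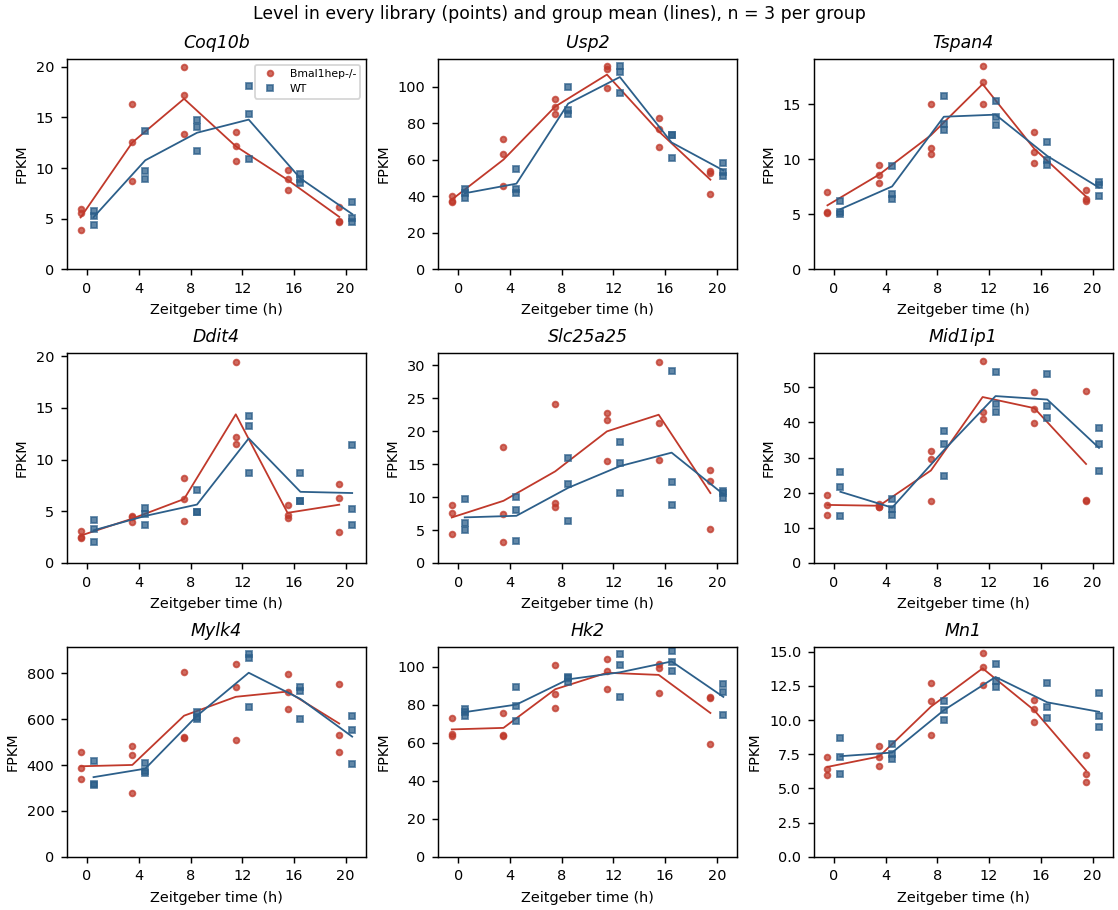
Each point is the FPKM of a library against zeitgeber time in hours, with Bmal1hep-/- in red just left of WT in blue, and lines join the means of 3 libraries. The 9 members shown span the early (Coq10b), middle (Usp2, Tspan4) and late (Mid1ip1) peak times. At ZT20 the 3 Bmal1hep-/- points of Mn1 lie below the 3 WT points.

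Lipid genes were led by Mid1ip1, whose product promotes the polymerisation of acetyl-CoA carboxylase and hence fatty acid synthesis, and which had the largest amplitude of all members (0.80 ± 0.08, SE, peak 14.1 h). Bmal1hep-/- libraries read 41.0, 57.6 and 43.1 FPKM at ZT12 and 19.2, 13.8 and 16.5 FPKM at ZT0. WT libraries read 54.3, 45.3 and 42.9 FPKM at ZT12 and 13.3, 25.9 and 21.6 FPKM at ZT0. At ZT20 the Bmal1hep-/- libraries were spread, at 48.9, 17.7 and 17.9 FPKM, against 38.4, 26.04 and 33.8 FPKM in WT, and the genotypes overlapped. Dgat2, which catalyses the last step of triglyceride synthesis, peaked at 13.4 h with an amplitude of 0.48 ± 0.10 (SE). In Bmal1hep-/- at ZT4 it stood at 54.6, 10.7 and 20.5 FPKM, and the high value came from replicate 1, which also stood apart in adipocyte markers. Without the 6 libraries its amplitude was 0.56. The part of adipocyte RNA in this value was not tested. Tmem86a, a lysoplasmalogenase gene (amplitude 0.54), Stard3, a sterol transfer protein of late endosomes (0.40), and Acot2, a mitochondrial acyl-CoA thioesterase (0.33), all peaked before 11 h. Acat2, a cytosolic thiolase gene, peaked at 11.4 h.

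Glucose genes included Hk2, the insulin-responsive hexokinase of muscle that traps glucose in the cell. It stood at 104, 88.5 and 97.8 FPKM at ZT12 and 73.0, 63.3 and 64.7 FPKM at ZT0 in Bmal1hep-/-, against 83.8, 106 and 101 FPKM at ZT12 and 74.2, 77.8 and 76.2 FPKM at ZT0 in WT. The ZT12 libraries were above all ZT0 libraries in both genotypes, and the ZT0 libraries of Bmal1hep-/- were below those of WT. Pfkfb1 (amplitude 0.26, peak 13.1 h) and Pfkfb4 (amplitude 0.29, peak 13.1 h), which make and break the sugar bisphosphate that activates phosphofructokinase, peaked close to Hk2 (amplitude 0.26, peak 13.03 h). Pdp1, a phosphatase that activates pyruvate dehydrogenase, was earlier (amplitude 0.37, peak 10.1 h). Of the glycolysis list, 6 of 24 tested genes had a shared 24 h rhythm at an adjusted p under 0.05, 3 of them in the dusk window, beside 12.6% and 3.32% of all genes tested. These were Pfkfb4, Pfkfb1 and Hk2.

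Of the mitochondrial members, Slc25a25, Ucp3 and Slc25a33 belong to the carrier family of the inner membrane. Slc25a25, a calcium-regulated exchanger of ATP-magnesium for phosphate, had group means of 6.91, 9.44, 13.9, 20.0, 22.5 and 10.6 FPKM from ZT0 to ZT20 in Bmal1hep-/- and 6.93, 7.17, 11.4, 14.7, 16.8 and 10.4 FPKM in WT. Replicates were wide: at ZT16 they were 15.7, 30.5 and 21.3 FPKM in Bmal1hep-/- and 12.3, 8.75 and 29.2 FPKM in WT. Its amplitude was 0.70 ± 0.13 (SE) and its level in Bmal1hep-/- minus WT was 0.21 ± 0.20 (SE), the highest difference of any member (adjusted p = 0.84 in limma). Ucp3, the muscle member of the uncoupling protein family, peaked at 9.16 h with an amplitude of 0.35, and Slc25a33, a pyrimidine nucleotide carrier gene, at 10.4 h with an amplitude of 0.33. Coa4, an assembly factor of cytochrome c oxidase, peaked at 11.4 h with an amplitude of 0.28. Idh1, the cytosolic source of NADPH from isocitrate, peaked at 10.1 h with an amplitude of 0.25. Of 23 nuclear-encoded respiratory chain genes, 0 had a shared rhythm at an adjusted p under 0.05 in the F test, beside 12.6% of all genes tested. Of 24 fatty acid oxidation genes, 4 did, with Ucp3 the only member.

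Of 7 detoxification genes, better known from liver, 5 peaked after 13 h. Adh1, which oxidises alcohols and retinol, stood at 34.8, 43.9 and 31.9 FPKM at ZT12 and 11.3, 12.8 and 12.2 FPKM at ZT0 in Bmal1hep-/-, against 46.6, 27.4 and 32.03 FPKM at ZT12 and 13.8, 11.8 and 15.3 FPKM at ZT0 in WT. All ZT12 libraries lay above all ZT0 libraries in both genotypes. The amplitude of Adh1 was 0.71 ± 0.07 (SE) and its peak 13.5 h. Inmt, an amine methyltransferase gene (amplitude 0.57, peak 13.5 h), Fmo2, a flavin monooxygenase gene (amplitude 0.56, peak 14.7 h), Sult1a1, a phenol sulfotransferase gene (amplitude 0.47, peak 14.3 h), and Nudt18, a hydrolase of oxidised nucleotides (amplitude 0.36, peak 14.3 h), peaked in the same late hours. Ephx1, the microsomal epoxide hydrolase gene (10.7 h), and Cygb, which encodes cytoglobin (9.70 h), were earlier. All 7 had a lower mean level in Bmal1hep-/- than in WT, by a median of -0.11 on the log2 scale, none past the adjusted threshold in limma. The 8 hepatocyte markers, of which 3 reached 1 FPKM and none was at 0 in every library, also had a lower median sum in Bmal1hep-/-. Their sum was 0 to 15.03 FPKM with a median of 1.22 in Bmal1hep-/- and 0.267 to 253 FPKM with a median of 7.61 in WT. In WT libraries it was 0.981, 1.25 and 0.724 FPKM at ZT0 and 9.61, 19.5 and 11.2 FPKM at ZT12. In Bmal1hep-/- libraries it was 0.298, 15.03 and 2.13 FPKM at ZT0 and 0.927, 2.79 and 2.64 FPKM at ZT12. The part of hepatocyte RNA in the levels or the daily course of these 7 genes was not tested.

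Amino acid, methionine and polyamine genes were Slc7a2, a carrier of cationic amino acids (amplitude 0.49, peak 14.3 h), Slc7a8, a carrier of neutral amino acids (amplitude 0.33, peak 14.3 h), Mat2a (amplitude 0.30, peak 12.8 h) and Srm, the spermidine synthase gene (amplitude 0.28, peak 9.92 h). Mat2a stood at 117, 119 and 138 FPKM at ZT12 and 86.6, 88.3 and 76.2 FPKM at ZT0 in Bmal1hep-/-, and at 124, 146 and 157 FPKM at ZT12 and 90.3, 91.8 and 92.6 FPKM at ZT0 in WT, without overlap between the times. Only Slc7a2 of the 4 had a lower mean level in Bmal1hep-/-, by -4.51e-04 on the log2 scale.

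Signalling genes made up the largest class, with 21 members: 7 peaked before 11 h, 7 from 11 h to before 13 h and 7 later. Ddit4, which encodes the mTORC1 inhibitor REDD1, had the widest fold of any member in Bmal1hep-/-. It stood at 12.2, 19.4 and 11.48 FPKM at ZT12 in Bmal1hep-/-, against 4.11, 6.21 and 8.22 FPKM at ZT8 and 5.56, 4.34 and 4.65 FPKM at ZT16. In WT it stood at 13.3, 8.66 and 14.2 FPKM at ZT12, 7.08, 4.89 and 4.97 FPKM at ZT8 and 8.67, 6.00 and 5.96 FPKM at ZT16. The ZT12 libraries of Bmal1hep-/- lay above both neighbouring times, and in WT 1 library overlapped ZT16. Its highest over lowest group mean was 5.43-fold in Bmal1hep-/- and 3.81-fold in WT. The MAP kinase phosphatase genes Dusp7 (amplitude 0.53, peak 12.9 h), Dusp1 (amplitude 0.32, peak 9.43 h) and Dusp14 (amplitude 0.28, peak 11.6 h) peaked at different hours. So did Map3k6, a stress kinase gene (amplitude 0.49, peak 13.2 h), Pim3, a survival kinase gene (amplitude 0.27, peak 9.21 h), Trib1, a pseudokinase gene (amplitude 0.28, peak 13.6 h), and Sgk1, a kinase gene induced by glucocorticoid and serum (amplitude 0.35, peak 13.999 h). Sphk2, which makes sphingosine 1-phosphate, was early with an amplitude of 0.55 ± 0.05 (SE), and Mcf2l, an exchange factor for small GTPases, was late (amplitude 0.48, peak 14.8 h). Gadd45b, a stress sensor gene (9.18 h), and Nfkbia, which encodes the inhibitor of NF-kappaB (11.4 h), had amplitudes of 0.39 and 0.27.

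Receptor genes included Acvr1b, a type I receptor for activins and myostatin (amplitude 0.40, peak 13.98 h), Fzd4, a receptor for Wnt proteins and norrin (amplitude 0.34, peak 10.6 h), and Tnfrsf21, of the tumour necrosis factor receptor family (amplitude 0.30, peak 11.2 h). Acvr1b held its group means between 17.8 and 31.9 FPKM in Bmal1hep-/- and between 18.1 and 34.3 FPKM in WT. Transcription regulators numbered 12. Nrip1, a corepressor of nuclear receptors that restrains oxidative genes in muscle, stood at 6.98, 2.84 and 8.59 FPKM at ZT12 and 2.29, 1.87 and 2.01 FPKM at ZT0 in Bmal1hep-/-, against 5.74, 7.52 and 7.56 FPKM at ZT12 and 2.87, 2.30 and 2.61 FPKM at ZT0 in WT. The low ZT12 value of Bmal1hep-/- came from replicate 2, in which long transcripts read low. The part of transcript length in the Nrip1 value was not tested. Cebpb (amplitude 0.56, peak 14.8 h) and Cebpd (amplitude 0.35, peak 12.9 h), of the C/EBP family, Klf15 (amplitude 0.31, peak 10.9 h) and Klf9 (amplitude 0.27, peak 11.2 h), Krüppel-like factors induced by glucocorticoid, and the orphan nuclear receptor gene Nr4a1 (amplitude 0.35, peak 10.4 h) were also members. Tob2, which recruits mRNA deadenylases, had an amplitude of 0.47.

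Membrane transport was represented by the zinc exporter gene Slc30a1 (amplitude 0.41, peak 9.29 h), the steroid sulphate carrier gene Slc10a6 (amplitude 0.38, peak 12.5 h), the sodium-calcium exchanger gene Slc8a3 (amplitude 0.26, peak 12.000 h), the potassium channel gene Kcna5 (amplitude 0.30, peak 13.5 h) and Aqp1 (amplitude 0.29, peak 12.4 h). With a pseudocount of 0.1 in place of 1 the amplitude of Slc10a6 was 0.71 and that of Fam107a (0.42 in the main fit) was 0.80; both lie near 1 FPKM. Of the sarcomere, Mylk4 stood at 743, 510.5 and 841 FPKM at ZT12 and 459, 386 and 339 FPKM at ZT0 in Bmal1hep-/-, and at 655, 887 and 867 FPKM at ZT12 and 315, 311 and 416 FPKM at ZT0 in WT. Tcap stood at 5207, 8587 and 4097 FPKM at ZT12 and 3828, 3414 and 3234 FPKM at ZT0 in Bmal1hep-/-, and at 4630.4, 4205 and 4129 FPKM at ZT12 and 2829, 3144 and 3755 FPKM at ZT0 in WT. The ZT12 libraries of both genes lay above their ZT0 libraries in each genotype, and the genotypes overlapped. The Tcap value of 8587 FPKM belongs to Bmal1hep-/- ZT12 replicate 2. Without the 6 libraries Mylk4 had an amplitude of 0.57 and Tcap of 0.22, against 0.54 and 0.31 with them, so that Tcap no longer met the rule. None of 24 tested genes of the contractile apparatus list had a shared rhythm at an adjusted p under 0.05 in the F test, beside 12.6% of all genes tested.

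Extracellular and secreted products included Timp3, an inhibitor of matrix metalloproteinases (42.9 FPKM, amplitude 0.30, peak 12.1 h), Ccl11, the chemokine eotaxin (amplitude 0.36, peak 10.1 h), Gkn3, of the gastrokine family (amplitude 0.47, peak 13.1 h), and the O-glycosylation enzyme gene Galnt15 (amplitude 0.29, peak 9.36 h). Nuclear members were Kpna2, an importin alpha gene (amplitude 0.33, peak 10.95 h), Rcl1, which acts in ribosomal RNA processing (amplitude 0.43, peak 9.61 h), and Ung, the uracil-DNA glycosylase gene (amplitude 0.29, peak 11.1 h). Cep85l, a centrosomal protein gene, had one of the large amplitudes, with 8.22, 3.43 and 9.54 FPKM at ZT12 and 2.87, 2.44 and 3.30 FPKM at ZT0 in Bmal1hep-/- and 13.6, 11.6 and 14.8 FPKM at ZT12 and 4.39, 3.07 and 2.65 FPKM at ZT0 in WT. The low ZT12 value again was Bmal1hep-/- ZT12 replicate 2, and the part of transcript length in it was not tested. All Bmal1hep-/- values at ZT12 lay below those of WT. Cys1, which encodes the cilium protein cystin, peaked at 14.1 h with an amplitude of 0.59 ± 0.07 (SE).

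The remaining members had small to middling amplitudes. Among signalling genes they were Synj2, a phosphoinositide phosphatase gene (amplitude 0.37, peak 9.99 h), Stk35, a kinase gene (amplitude 0.36, peak 11.4 h), Tns2, which encodes a tensin of focal adhesions (amplitude 0.34, peak 9.33 h), Snrk, a relative of AMPK (amplitude 0.33, peak 12.1 h), Frat1, which binds and inhibits GSK3 (amplitude 0.27, peak 9.78 h), and Prickle3, of the planar polarity family (amplitude 0.26, peak 13.3 h). Chpf2, which polymerises chondroitin (amplitude 0.27, peak 10.3 h), Crim1, a membrane protein that binds bone morphogenetic proteins (amplitude 0.25, peak 10.9 h), and Cldn12, a claudin gene (amplitude 0.27, peak 11.4 h), belong to the matrix and cell surface. Lrrn4cl, Ctla2a and Tmem57 had amplitudes of 0.41, 0.35 and 0.31. The clone-named or predicted genes Gm3893 and 5930430L01Rik had amplitudes of 0.52 and 0.33.

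**Figure D3:**
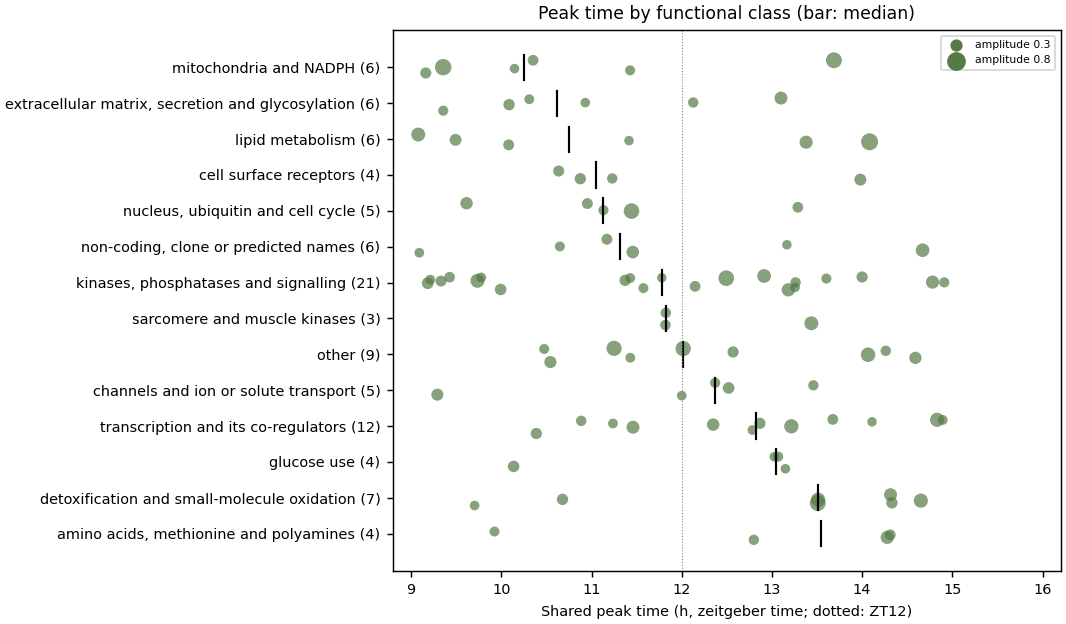
Each point is a member placed by its shared peak time in hours of zeitgeber time, in rows by functional class ordered by median peak (black bars), with the area of the point proportional to the amplitude and the class size in parentheses. Mitochondrial genes sit mostly before 11 h and detoxification genes mostly after 13 h. The signalling genes cover the whole window.

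Among the non-coding members, 2 host microRNA genes in GRCm38, the build of the RefSeq and GENCODE tables. Mir22hg, the host of miR-22, stood at 19.6, 20.0 and 18.6 FPKM at ZT12 and 8.94, 10.8 and 8.53 FPKM at ZT0 in Bmal1hep-/-, against 18.3, 21.04 and 19.5 FPKM at ZT12 and 7.89, 10.3 and 7.78 FPKM at ZT0 in WT (amplitude 0.44, peak 11.46 h). The times did not overlap, and the genotypes did. A330023F24Rik, whose gene holds miR-29b-2 and miR-29c, had an amplitude of 0.28 and a peak at 10.6 h. The mature RNAs were not measured here, and the poly(A) libraries read their hosts only. Their RefSeq sequences are shown because the seed (bases 2 to 8, in capitals) is what defines each family, and the miR-29 pair share theirs.
miR-22-3p: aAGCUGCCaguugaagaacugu
miR-29b-3p: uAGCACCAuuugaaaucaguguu
miR-29c-3p: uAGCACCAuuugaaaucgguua

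Other genes of the pathways were read from lists, which were drawn up with earlier results of these data known. Over all genes tested, 12.6% had a shared rhythm at an adjusted p under 0.05 and 3.32% had one that peaked in the dusk window. Of 18 tested glucocorticoid targets, 14 had a shared rhythm at an adjusted p under 0.05, of which 7 peaked in the dusk window, 5 from 15 h to before 21 h, 1 from 21 h to before 3 h and 1 from 3 h to before 9 h. Ddit4, Sgk1, Cebpd, Dusp1, Klf15 and Klf9 were members, and Per1 was excluded by the rule. Of 12 tested clock outputs shared among tissues, 10 had a rhythm and 6 peaked at dusk, with Coq10b, Usp2, Tspan4 and Wee1 as members. Of 19 tested immediate early genes, 8 had a rhythm and 4 peaked at dusk. Heat shock chaperone genes had 9 rhythmic of 25 tested and myogenic regulator genes 6 of 16, with 0 of each list at dusk. The proteasome list had 0 rhythmic genes of 27. No enrichment and no difference between lists was tested.

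How far the dusk rhythm held in each genotype was read in a limma fit with a cosine and sine per genotype. The rule used the sum of these rhythms, so the counts are a description. 85 of 98 members were called in Bmal1hep-/- at an adjusted p under 0.05 and 77 in WT, beside 5.47% and 6.03% of all genes tested. 65 were called in both and only 4930577N17Rik, a clone-named gene, in neither. These counts used a spread shared by both genotypes and set no limit on the peak hour. With each genotype fitted alone and the peak required in the dusk window, 54 members were called in Bmal1hep-/- and 76 in WT. Beside these stood 0.821% and 2.67% of all genes tested (limma, adjusted p under 0.05). Median amplitudes were 0.36 in Bmal1hep-/- and 0.35 in WT, and the amplitude was larger in Bmal1hep-/- for 50 members and in WT for 48. Median peaks were 11.7 h in Bmal1hep-/- and 12.2 h in WT. The 2 peaks of a gene lay within 2 h of each other for 84 members. The peak was earlier in Bmal1hep-/- for 69 members (70.4%), beside 154 of 261 (59.0%) other genes passing the same p and amplitude limits. The medians were -0.46 h and -0.20 h. These 261 peaked at other hours, except for the 10 excluded genes that peaked in the dusk window. The count of earlier peaks over genes was not tested.

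A test in libraries that did not choose the genes was possible by choosing in a single genotype and calling in the other. Applied to the WT libraries alone, the rule chose 70 genes, and 33 of them (47.1%) were called with a dusk peak in the Bmal1hep-/- libraries alone (limma, adjusted p under 0.05), beside 0.821% of all genes tested. Applied to the Bmal1hep-/- libraries alone it chose 45, and 31 (68.9%) were called in WT, beside 2.67% of all genes. Ignoring the test, 60 of the 70 and 39 of the 45 had their fitted peak in the dusk window in the other genotype. Amplitudes on the side not used for choosing had medians of 0.32 (Bmal1hep-/-) and 0.33 (WT), below the 0.40 (Bmal1hep-/-) and 0.36 (WT) on the side that chose. Without the 6 libraries that stood apart, 23 and 25 were called in the same 2 tests, beside 0.489% (Bmal1hep-/-) and 2.51% (WT) of all genes.

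The difference in rhythm between genotypes was tested for each gene by limma's F test of the cosine and sine differences. No member passed the adjusted threshold and none of all genes tested did (0%), with a smallest adjusted p of 0.913. At an unadjusted p under 0.05 there were 8 members, beside 4.01% of all genes. These were Mn1, Dusp7, Map3k6, Dusp1, Pim3, Rasl11b, Kcna5 and Cebpb. Peaks for Mn1, a transcriptional coregulator gene, were 11.55 h in Bmal1hep-/- and 13.5 h in WT (unadjusted p = 0.00502, adjusted p = 0.913 in limma). Dusp1 had amplitudes of 0.50 in Bmal1hep-/- and 0.16 in WT. Rasl11b, a small GTPase gene, had the widest gap in peak time, at 13.2 h in Bmal1hep-/- and 16.6 h in WT. A p that misses the threshold does not show that the rhythms were alike.

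**Figure D4:**
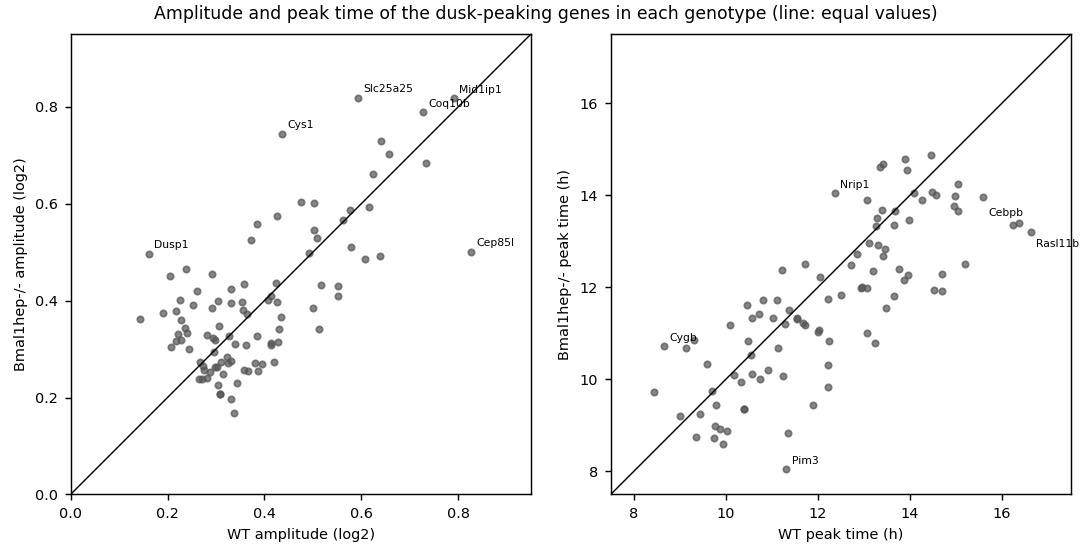
Each point is a member, with the value in Bmal1hep-/- on the vertical axis and in WT on the horizontal axis, for amplitude on the log2 scale (left) and peak time in hours (right), and the line marks equal values. Points lie on both sides of the line in amplitude, with Cep85l well below and Cys1 and Dusp1 above it. In peak time more points lie below the line (earlier in Bmal1hep-/-) than above it.

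Mean level over the 6 times was compared as Bmal1hep-/- minus WT. No member passed the adjusted threshold in limma, nor did any gene tested (0%), and the smallest adjusted p of a member was 0.387. At an unadjusted p under 0.05 there were 14 members, beside 8.37% of all genes, and each of the 14 was lower in Bmal1hep-/-. Among all genes 4.39% had such a p and were lower. The 5 of smallest p were Fmo2 (-0.25 ± 0.09, SE), Ung (-0.18 ± 0.07), Mn1 (-0.14 ± 0.05), Hk2 (-0.13 ± 0.05) and Klf9 (-0.16 ± 0.06), all log2 differences with adjusted p from 0.387 to 0.436 in limma. Fmo2 stood at 4.19, 2.91 and 3.69 FPKM at ZT0 in Bmal1hep-/- and 6.71, 4.73 and 6.72 FPKM in WT, without overlap, while at ZT12 they overlapped, with 10.1, 6.59 and 11.9 FPKM in Bmal1hep-/- and 16.7, 8.98 and 11.54 FPKM in WT. In direction alone, 64 of 98 members (65.3%) were lower in Bmal1hep-/-, beside 51.6% of all genes tested, with medians of -0.05 and -2.83e-03. Of the 261 other rhythmic genes, 134 were lower. Without the 6 libraries the count for members was 64 and the median -0.03. The 95% interval of a member's difference reached a median of 0.14 to each side, and for 97 members the whole interval lay within 0.5 of 0.

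By class, the level was lower in Bmal1hep-/- for 7 of 7 detoxification genes, 5 of 5 transport genes, 10 of 12 transcription regulators, 5 of 6 genes of extracellular matrix, secretion and glycosylation and 14 of 21 signalling genes. It was lower for 3 of 4 glucose, 3 of 4 receptor, 2 of 3 sarcomere, 5 of 9 other, 3 of 6 lipid, 3 of 6 non-coding or predicted, 2 of 5 nuclear and 1 of 4 amino acid genes. The share was 65.3% over all members and 51.6% over all genes tested. The classes were assembled after the values were seen, with no test between them. Among mitochondrial genes 1 of 6 was lower, which was Ucp3 (-0.16 ± 0.08, SE). None of these differences passed the adjusted threshold in limma. The 2 glucocorticoid-induced Krüppel-like factors were both on the lower side. Klf15, which drives amino acid catabolism and lipid use in muscle, stood at 18.3, 21.4 and 16.8 FPKM at ZT12 in Bmal1hep-/- and 22.4, 21.4 and 18.4 FPKM in WT, and at ZT8 at 12.7, 17.1 and 16.8 FPKM in Bmal1hep-/- and 19.4, 20.4 and 17.6 FPKM in WT. The ZT8 groups did not overlap and the ZT12 groups did. Its mean difference was -0.15 ± 0.06 (SE), and limma gave an adjusted p = 0.478 (unadjusted p = 0.022).

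Among the single times, ZT20, in the late night, held the most members at an unadjusted p under 0.05. There 72 members had a lower mean in Bmal1hep-/-, beside 49.5% of all genes tested, with a median difference of -0.13 for members and 0.00235 for all genes. No member passed the adjusted threshold at ZT20 in limma (0% of all genes did), and at an unadjusted p under 0.05 there were 19 members, 18 of them lower. Over all genes 12.6% had such a p and 8.61% were also lower. Mn1 had the smallest p of any gene tested at ZT20. It stood at 7.41, 5.44 and 6.08 FPKM in Bmal1hep-/- and 10.3, 9.48 and 12.01 FPKM in WT, and the groups did not overlap. The log2 difference was -0.67 ± 0.12 (SE), with an adjusted p of 0.0961 in limma. At ZT12 Mn1 stood at 12.6, 14.9 and 13.9 FPKM in Bmal1hep-/- and 12.4, 12.9 and 14.1 FPKM in WT, so that the groups overlapped at its peak.

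Kcna5 at ZT20 stood at 3.48, 2.80 and 3.17 FPKM in Bmal1hep-/- and 5.59, 4.55 and 5.30 FPKM in WT. Dusp1, which switches off MAP kinases, stood at 32.99, 24.5 and 23.9 FPKM in Bmal1hep-/- and 42.2, 51.4 and 41.2 FPKM in WT. Map3k6 stood at 1.205, 1.17 and 1.67 FPKM in Bmal1hep-/- and 3.26, 2.20 and 2.30 FPKM in WT. Bmal1hep-/- lay below WT without overlap for each. The same held for Ier3, an immediate early gene, which stood at 5.003, 3.74 and 4.81 FPKM in Bmal1hep-/- and 9.19, 5.21 and 8.43 FPKM in WT. The log2 differences were -0.56 ± 0.14 for Kcna5, -0.62 ± 0.17 for Ier3, -0.61 ± 0.18 for Map3k6 and -0.72 ± 0.22 for Dusp1 (SE), each with an adjusted p of 0.354 in limma. A330023F24Rik was the member that was higher instead, in Bmal1hep-/- at ZT20, by 0.34 ± 0.15 (SE). Leaving out a single library could bring calls at ZT20. Without Bmal1hep-/- ZT20 replicate 1, 6 members passed the adjusted threshold, all lower in Bmal1hep-/-: Mn1, Kcna5, Dyrk1b, Dusp1, Ier3 and Mid1ip1 (beside 3.06% of all genes, adjusted p from 0.0143 to 0.0472 in limma). Without Bmal1hep-/- ZT8 replicate 1, Mn1 passed at ZT20 (adjusted p = 0.0341). By library, 59, 63 and 66 members lay below the WT mean of ZT20 in Bmal1hep-/- replicates 1, 2 and 3. The share of all genes was not counted by library, so an offset of a whole library cannot be told apart from a trait of the members in these counts. Replicate 3 also held the highest adipocyte and leukocyte marker sums of all libraries (3324 and 146 FPKM). Without it 72 members were lower at ZT20 and the median difference was -0.09, beside 50.2% and -1.11e-03 over all genes. Correlations with transcript length at ZT20 were -0.03, 0.21 and 0.18 in Bmal1hep-/- replicates 1, 2 and 3. In WT replicates 1, 2 and 3 they were 0.09, 0.17 and -0.23. Without WT ZT20 replicate 3, 75 members were lower, beside 51.2% of all genes. The part of transcript length in the ZT20 differences was not tested.

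**Figure D5:**
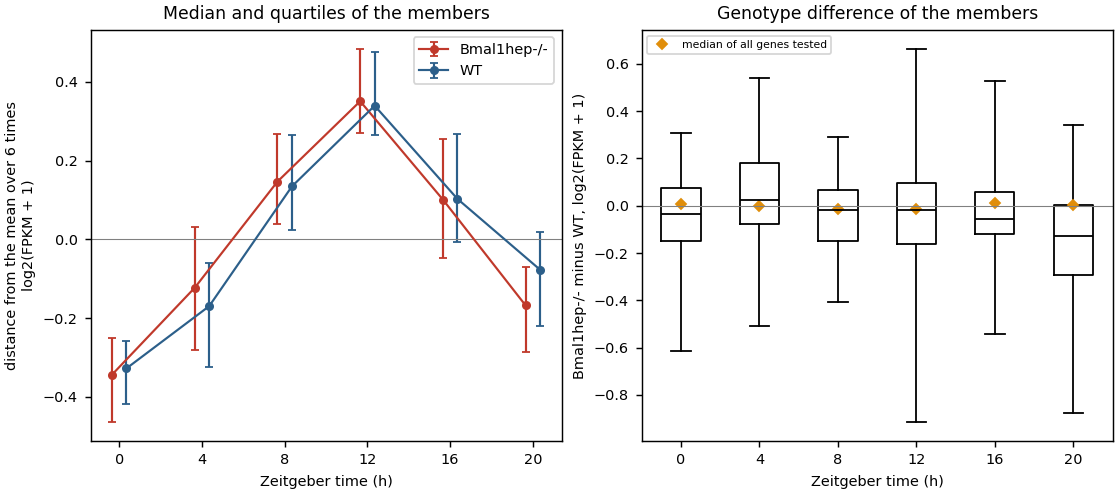
Left, the median (points) and quartiles (bars) over the members of the group mean minus the mean over 6 times, against zeitgeber time, for Bmal1hep-/- (red, drawn just left) and WT (blue). Right, boxes give the quartiles and median, and whiskers the full range, of Bmal1hep-/- minus WT over the members at each time, with orange diamonds for the median of all genes tested. The profiles coincide closely and part most at ZT20, where the upper quartile of the differences lies near 0.

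At the other times no member passed either, and no gene tested did (0% at each time). Unadjusted p-values under 0.05 in limma numbered 6 members at ZT0, all lower (2.2% of all genes, 1.01% lower), 11 at ZT4, of which 3 lower (9.06%, 4.32% lower), 0 at ZT8 (3.08%, 2.17% lower), 2 at ZT12, both lower (7.25%, 2.85% lower) and 2 at ZT16, both lower (2.45%, 0.766% lower). At ZT4 8 of the 11 were higher in Bmal1hep-/-. Usp2 at ZT4 stood at 45.7, 63.4 and 71.1 FPKM in Bmal1hep-/- and 43.9, 41.9 and 54.8 FPKM in WT (log2 difference 0.34 ± 0.13, SE, adjusted p = 0.452 in limma), with overlap. Without the 6 libraries that stood apart, among them the lowest of these Bmal1hep-/- values, Usp2 at ZT4 was the only member called (log2 difference 0.52, adjusted p = 0.0251), beside 1.06% of all genes. Ung, Klf9 and Klhl33 were the 3 that were lower at ZT4. At the peak itself, ZT12, 53 members were lower and the median difference was -0.02, beside -0.01 for all genes. Cep85l, at ZT12 given above, had the smallest p there (-0.91 ± 0.30, SE, adjusted p = 0.686 in limma).

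Shape beyond a 24 h cosine was tested by limma's F test of the 12 h cosine and sine and of the alternation between successive times. A poor fit to the 24 h cosine made a gene less likely to be chosen. No member passed the adjusted threshold (smallest adjusted p 0.442) and 0.0185% of all genes did. At an unadjusted p under 0.05 there were 16 members, beside 4.06% of all genes. The 5 of smallest p were Ier3, Ddit4, Kcna5, Wee1 and Cebpd. Ier3 reached its highest mean at ZT16, with group means from ZT0 to ZT20 of 6.12, 6.16, 7.61, 6.68, 10.5 and 4.52 FPKM in Bmal1hep-/- and 5.06, 6.18, 7.73, 8.13, 10.4 and 7.61 FPKM in WT. In Bmal1hep-/- the ZT12 libraries of Ddit4 and Cebpd lay above those of every other time, while in WT they overlapped ZT16 and ZT20 for both genes. Cebpd had group means of 5.65, 5.84, 6.83, 11.1, 6.01 and 6.37 FPKM in Bmal1hep-/- and 4.77, 7.12, 7.11, 11.7, 9.11 and 9.08 FPKM in WT. Wee1 had its lowest mean at ZT4, at 1.26 ± 0.0842 FPKM in Bmal1hep-/- and 0.994 ± 0.265 FPKM in WT (SD, n = 3 each), and not at ZT0. The 12 h amplitude was more than 0.5 times the 24 h amplitude in 3 members, Trib1, Zfp385b and Ier3. The genotype difference in shape gave no member and no gene past the adjusted threshold (0%) and 5 members at an unadjusted p under 0.05, beside 4.59% of all genes. These were Ier3, Mat2a, A330023F24Rik, Inmt and Mn1. With limma's array weights, which gave Bmal1hep-/- ZT8 replicate 3 a weight of 41.1 where the others had 0.163 to 9.55, 11 members passed for the rhythm difference, 20 for shape, 15 for the shape difference, 35 at any single time and 2 for level. The shares of all genes were 7.17%, 9.92%, 17.2%, 33.8% and 1.72%.

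Spread between replicates set the limit of these comparisons. The median within-group SD of the members was 0.225 in Bmal1hep-/- and 0.194 in WT on the log2 scale, and it was larger in Bmal1hep-/- for 69 members (70.4%), beside 81.8% of all genes tested. All ZT12 libraries lay above all ZT0 libraries for 90 members in Bmal1hep-/- (7.8% of all genes tested) and for 85 in WT (14.6%), a count that the choice of members fixes in large part. The labels do not say that replicates with the same number share an animal, so each mouse is taken as its own sample. The genotype and shape tests set each difference against the spread between these samples. That spread was shared by all groups of a gene, although it was mostly larger in Bmal1hep-/-.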

How the data were processed

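Poly(A)-selected RNA of gastrocnemius muscle was sequenced from 36 libraries, 3 per genotype and time. FPKM values per gene symbol are used as the authors deposited them. The submitters' processing notes name FastQC 0.11.8, STAR and the builds mm10 and GRCm39; the sources used here give neither the tool and annotation behind the FPKM nor read totals. Without read counts no counting interval can be given. Relative depth was estimated from the spacing of values of 3900 low genes (90.6% of pairs of values within 0.05 of whole steps), and no count test was run. Genes averaging 1 FPKM or more were taken as log2(FPKM + 1), so fold changes of low genes are understated. The rule was fitted by least squares with 32 residual degrees of freedom. Genotype and shape tests used limma 3.58.1 in R 4.3.3 (all groups in one fit, trended and robust variances), with Benjamini-Hochberg adjustment over 10837 genes and a threshold of 0.05. The tests were also run on simulated data, with outcomes not reported here. Residuals were shuffled over all libraries there, so the larger spread of Bmal1hep-/- was not kept and its effect was not tested. Summaries used Python 3.11.15 with pandas 2.3.3, numpy 2.4.6 and scipy 1.17.1, and figures matplotlib 3.10.9. The members and the 24 function and 10 marker lists were chosen with earlier results of these data known. Genes named are the 25 members of largest amplitude, up to 4 members per list, the 5 of smallest p per test, the 5 highest and 5 lowest in level and 3 on each side of each limit. A few genes that these rules name are not reported here. All other named genes and the functional classes were chosen after their values were seen. RefSeq promoters and microRNAs (GRCm38.p6) were matched by symbol, and transcript lengths came from GENCODE M21. Alternatives were another pseudocount, filter, scaling, weighting, replicate block, rule limit and each library left out.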

Additional observations from a re-analysis of the deposited data

How the results depend on the processing

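The rule chose 71 to 118 genes over the alternatives that kept its amplitude limit, and 18 with an amplitude of at least 0.5. Leaving out each library in turn gave 90 to 105; 69 members stayed in all 36 of these and 9 stayed in fewer than 30. No member passed a genotype or shape test under another pseudocount, filter or scaling. Limma's array weights moved most counts: 2 members for level (Hk2 at -0.15, and Synj2), 35 at a single time, 11 for rhythm, 20 for shape and 15 for the shape difference. With these weights 54 genes chosen in WT were called in Bmal1hep-/-, where 6.97% of all genes were called. The other way there were 57, beside 3.3% of all genes called in WT. The cause of these moves was not tested. At a single time, 1 member passed without the 6 libraries, and 0 to 6 with a library left out: 6 without Bmal1hep-/- ZT20 replicate 1, 1 without Bmal1hep-/- ZT8 replicate 1 and 0 otherwise. Genes chosen in WT and called in Bmal1hep-/- numbered 24 to 36 with a library left out, where 56 to 80 were chosen. The other way 27 to 35 were called and 37 to 50 chosen. With the replicate number as a block, the rule chose 98, and 0 members passed any genotype or shape test. In that setting 29 and 30 genes were called across genotypes, beside 0.729% (Bmal1hep-/-) and 2.59% (WT) of all genes. Across groups, libraries sharing a number had deviations with a median r of 0.0178 (45 of 198 pairs above 0.1, highest 0.68). For libraries with different numbers the median r was -0.00944 (90 of 396 pairs above 0.1, highest 0.55). The 2 sets were thus much alike, but such medians cannot exclude that some samples of a number were handled together. With a pseudocount of 0.1 the amplitudes of Fam107a and Slc10a6 were 0.80 and 0.71. The count of members lower in Bmal1hep-/- in mean level was 61 to 70 with a library left out. At ZT20, with a library of that time left out, it was 64 to 77, beside 47.4% to 52.1% of all genes. These settings were added after the data were seen.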

Other observations

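Over all genes tested, 12.6% had a shared rhythm at an adjusted p under 0.05 and 3.32% one that peaked from 9 h to before 15 h. Of the integrated stress response list, 5 of 15 tested genes had a shared rhythm at an adjusted p under 0.05 and 3 of these peaked from 9 h to before 15 h. Of amino acid transport and polyamine genes 8 of 20 did, 3 of them at dusk. Among atrophy and FOXO targets 9 of 22 did, with 1 at dusk, and among insulin signalling genes 6 of 24, with 1 at dusk, which was Ddit4. Fatty acid and sterol synthesis had 9 of 27, with 2 at dusk. Of the adrenergic and cAMP list, 5 of 17 did. No marker gene of hepatocytes, adipocytes, leukocytes or endothelium peaked at dusk at that threshold, although 4 of 8 endothelial markers had a rhythm, peaking from 21 h to before 3 h.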
